A study of Rattus norvegicus with 10 samples.

Results

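This report describes the gene response to honokiol given before indomethacin, read as the difference between the 2 libraries of that treatment and the 2 libraries of indomethacin alone. These 4 libraries were chosen by their labelled treatment out of 10 libraries in the series. The tissue of every library was gastric mucosa, taken from Sprague Dawley rats, with epithelial cells given as the cell type, and held total RNA depleted of ribosomal RNA. The oral dose of indomethacin was 48 mg/kg, and 40 mg/kg of honokiol was injected intraperitoneally with a lead of 30 min. The other groups, also of 2 libraries each, were controls whose labels name no treatment, oral diclofenac (75 mg/kg) and oral aspirin (a dose of 400 mg/kg). The protocol places tissue collection 4 h after the drug. The time label of the honokiol libraries reads 0.5 h, the length of the lead of honokiol over indomethacin, so their sampling at 4 h rests on the protocol text. Neither honokiol alone nor vehicle was analysed here, so an effect of honokiol on untreated mucosa cannot be told apart from an effect on the indomethacin response. The labels give no age and do not say how many animals stand behind a library.

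Indomethacin is a non-steroidal anti-inflammatory drug that blocks the cyclooxygenases, the enzymes that make prostaglandins. In the stomach, prostaglandins sustain mucus and bicarbonate secretion and mucosal blood flow, and their loss is the textbook route by which this drug class injures the mucosa and draws in inflammatory cells. Honokiol is a lignan of magnolia bark that is widely used as an activator of the mitochondrial deacetylase sirtuin 3, the protein named in the title of the study. The comparison asks which parts of the indomethacin response differed when honokiol came first.

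Library totals ran from 23892226 to 44977459 counts, and those of the 4 libraries compared were 43608370 and 34659858 with indomethacin and 27981982 and 27082360 with honokiol before it. Levels below are TMM-scaled CPM, the counts brought to a common library total, and values for a pair of libraries are given with replicate 1 first. The files carry Ensembl identifiers without gene names, and 0 of 32623 matched the table of symbols, so no gene could be assigned a function, the cell type label could not be checked against markers, and genes are described by chromosome, position and number of listed exons. The number of exons counts every distinct exon span listed for a gene. Overlapping spans count separately, so it can exceed the number of separate exons. No source used here names the genome build behind the positions. The libraries differed in features that the treatments do not name. Counts on 7 Y-chromosome features were 4438 and 2 in the indomethacin libraries, 3393 and 2733 in the honokiol libraries and 3582 and 1 in the controls, and at most 47 in a diclofenac or aspirin library, so reads from the Y chromosome move in part with the comparison. Mitochondrial features took 32.4% and 21.7% of counts with indomethacin against 31.5% and 35.4% with honokiol, of which 29.7%, 19.3%, 28.5% and 31.3% of counts lay at the positions of the mitochondrial ribosomal RNA genes. In bulk tissue, fewer cells of a type and less RNA per cell cannot be told apart.

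Among the called genes, far more were lower than higher with honokiol before indomethacin. Over all genes tested, both honokiol libraries lay below both indomethacin libraries in 23.6% and above them in 21.7%. Of 16346 genes tested, 56 were called (0.343%), 49 of them lower (0.300%) and 7 higher (0.0428%) than with indomethacin alone, at an adjusted p under 0.05 (edgeR quasi-likelihood F test, Benjamini-Hochberg). The median gene lay near 0, at a log2 difference of -0.02, with quartiles of -0.28 and 0.22. The median of the 49 lower genes was -2.59 and that of the 7 higher genes 2.1. With a term for Y reads in the model 35 genes were called, 31 lower and 4 higher, and 25 of these were among the 56. The count fell to 0 without honokiol replicate 1 (where 1272 genes had p under 0.05 before adjustment, against 1552 with all libraries), to 3 without honokiol replicate 2 and to 9 without indomethacin replicate 2, and rose to 118 or 116 without either diclofenac replicate, where a group left with 1 library is assumed to vary like the others.

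The genes of the indomethacin response were then followed into the honokiol libraries. Indomethacin alone raised 123 genes over control (0.752%) and lowered 4 (0.0245%). Of the 123, 44 were called lower with honokiol, 79 were not called and 0 were called higher. Both comparisons use the same 2 indomethacin libraries, so a high value in those libraries enters both, and the values are set side by side here without reading their overlap as a result. The median log2 difference of the 123 genes was 2.57 for indomethacin against control, -1.76 for honokiol plus indomethacin against indomethacin, and 0.59 for honokiol plus indomethacin against control. Against the same controls, the median log2 change of these genes was 2.56 for diclofenac and 2.50 for aspirin. Against the 127 genes called with indomethacin in either direction, leaving out control replicate 1 or 2 left 21 and 1, leaving out the second indomethacin library left 52, and leaving out either diclofenac library gave 200 or 192. The genes both raised by indomethacin and lower with honokiol, recounted in the same way, were 27 with a term for Y reads, 16 and 1 without control replicates 1 and 2, 8 without indomethacin replicate 2, 0 and 2 without honokiol replicates 1 and 2, and 91 or 90 without either diclofenac replicate. The median of the same 123 genes for honokiol was negative under every setting tried, which their choice by the indomethacin libraries favours.

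**Figure D1:**
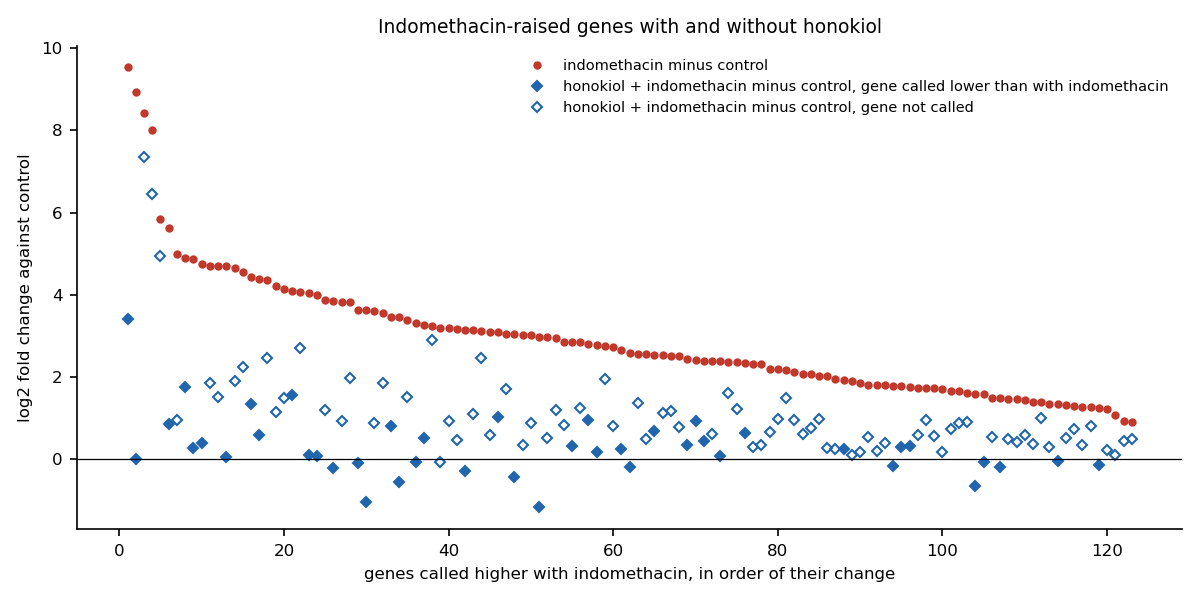
Fitted log2 fold change against control (edgeR) of the 123 genes called higher with indomethacin, in order of that change: red points show indomethacin alone, blue diamonds honokiol before indomethacin, filled for the 44 genes called lower than with indomethacin and open for the 79 not called. The blue diamonds lie below the red points at the same rank, with a median of 0.59 against 2.57, and the filled ones lie mostly near 0.

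How much of the indomethacin increment was left with honokiol was expressed as a percentage, the mean CPM with honokiol minus the control mean, divided by the indomethacin mean minus the control mean. Across the 123 genes the median left was 11.5%, from -18.4% to 76.4%. The indomethacin libraries that set the divisor also served to choose the 123, which tends to lower the percentage left. Under 10% was left for 57 genes, 10% to 25% for 39, 25% to 50% for 21 and over 50% for 6. The split into called and not called genes uses the same fall with honokiol, so a smaller remainder among the called genes is fixed by the split and is given only as a description. For the 44 called genes the median was 1.19%, from -18.4% to 20.5%, and in 20 of them both honokiol libraries were at or below the higher control, a smaller share than the 56.0% of all genes tested. For the 79 genes not called it was 18.6%, from 2.8% to 76.4%, and in 66 of them both honokiol libraries still lay above both controls, a pattern seen in 18.3% of all genes tested. In 46 genes the level was under 1 CPM in both controls and at least 1 CPM in both indomethacin libraries. Of these, 28 were under 1 CPM in both honokiol libraries and 11 stayed at 1 CPM or more in both. Asking for a high indomethacin level favours lower levels with honokiol, so these counts are only a description.

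Against control, honokiol plus indomethacin called 0 genes (edgeR, with 816 genes at an unadjusted p under 0.05 and a lowest adjusted p of 0.20). Among the 123 genes the lowest adjusted p in that comparison was 0.42. DESeq2 called 15 genes there and limma-voom 0. A count of 0 with 2 libraries a group does not show a return to control levels.

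The steepest falls were in genes that were nearly silent in control mucosa. ENSRNOG00000002843, a 4-exon gene on chromosome 14 from 18860264 to 18862407, held no count in either control (0 and 0), 2.23 and 3.03 CPM with indomethacin, and 0.0324 and 0.0374 CPM with honokiol. Its honokiol libraries sat close to the empty controls and far under both indomethacin libraries. The log2 difference was -6.11 ± 0.84 (SE, adjusted p = 0.022, edgeR), and from 2 against 198 counts the ratio of honokiol to indomethacin was 0.0131 (exact 95% counting interval 0.00158 to 0.048). ENSRNOG00000017386, a 7-exon gene on chromosome 1 from 72635267 to 72643255, was at 0.0947 and 0.134 CPM in control, 5.75 and 5.86 with indomethacin, and 0.227 and 0.187 with honokiol. Here the indomethacin libraries were almost equal to each other, and the fall of -4.78 ± 0.53 on the log2 scale (SE, adjusted p = 0.0078, edgeR) left 1.63% of the increment. A 6-exon gene on chromosome 1 from 80214494 to 80221710 had the lowest adjusted p of the 56, 0.0014 (edgeR), with 3.74 and 4.29 CPM under indomethacin and 0.162 and 0.150 CPM under honokiol, below both controls at 0.379 and 0.267 CPM.

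More abundant genes and genes with more listed exons fell too. A 60-exon gene on chromosome 3 from 109862117 to 109873466 was the most abundant of the lowered genes, at 43.3 and 49.9 CPM in control, 270 and 631 CPM with indomethacin, and 75.6 and 56.7 CPM with honokiol. The honokiol libraries were above both controls and under both indomethacin libraries, and the log2 difference was -2.77 ± 0.44 (SE, adjusted p = 0.030, edgeR). A 17-exon gene on chromosome 1 from 31734327 to 31777070 went from 20 and 20.7 CPM in control to 115 and 98.8 with indomethacin and was at 24.2 and 31.7 with honokiol, a fall of -1.94 ± 0.26 (SE, adjusted p = 0.018, edgeR). A 2-exon gene on chromosome 18 from 27657628 to 27661429 was at 0.916 and 1.44 CPM in control, 21.9 and 46.6 with indomethacin, and 1.30 and 1.53 with honokiol. In that gene, as in 35 of the 44, indomethacin replicate 2 was the higher of the pair, and replicate 2 was higher in 8041 of all 16346 genes. A 126-exon gene on chromosome 10 from 53713938 to 53848347 held 129 counts with indomethacin and 0 in both control and both honokiol libraries, so indomethacin was at least 33.1-fold higher than honokiol over a floor of 3 counts for the pair of libraries. At 87 and 42 counts with indomethacin and at most 3 in any other library, it passed the low-count filter only through the indomethacin libraries. That entry favours a fall with honokiol, so its values are only a description.

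**Figure D2:**
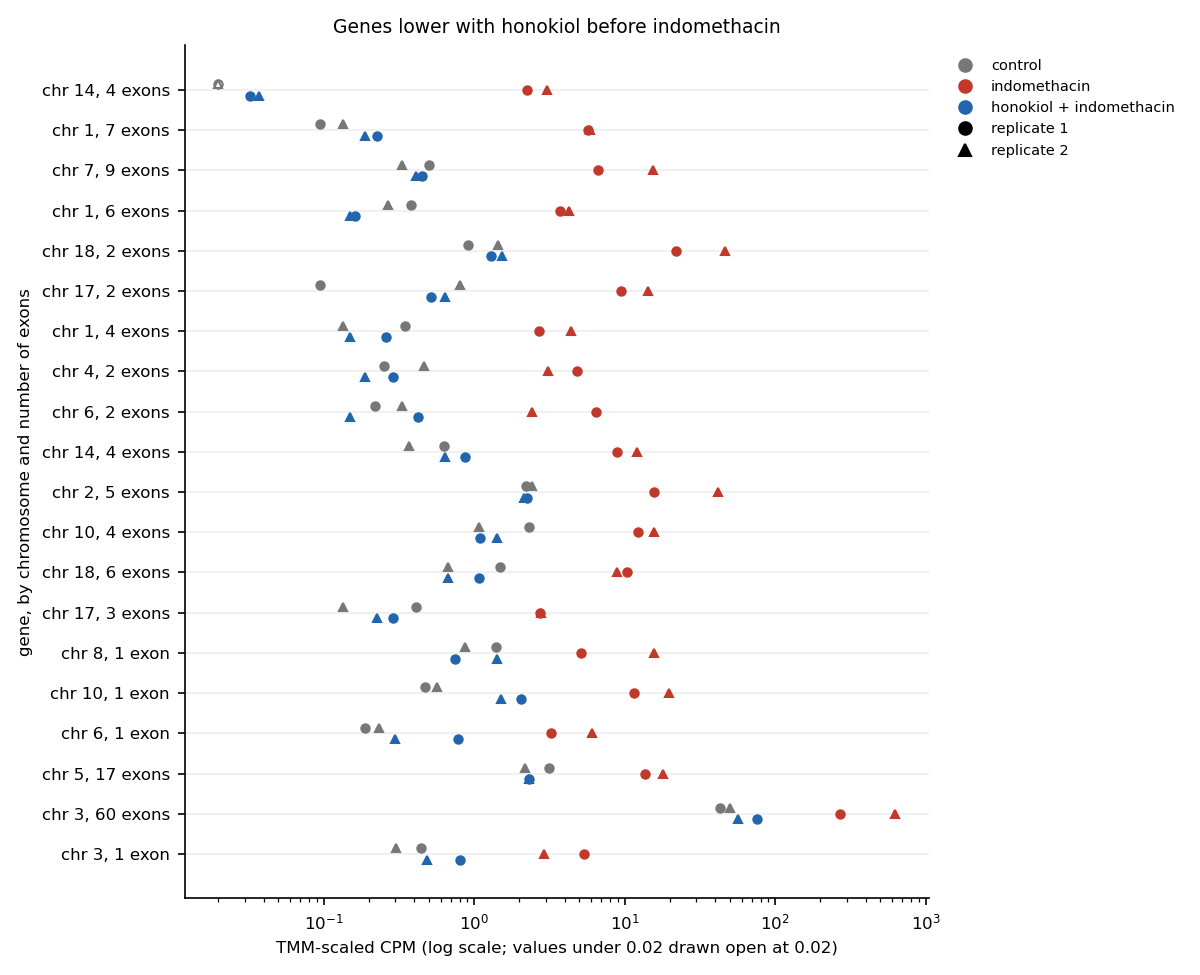
TMM-scaled CPM on a log axis in control (grey), indomethacin (red) and honokiol plus indomethacin (blue) libraries, circles for replicate 1 and triangles for replicate 2, for the 20 genes with the largest falls with an average log2 CPM no lower than 0. In every gene drawn both blue points lie left of both red points, and in many they overlap the grey points, as for the chromosome 7 gene of 9 exons at 0.453 and 0.412 against 0.505 and 0.334 CPM.

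A gene on chromosome 4 from 168832910 to 168851652 lay below its controls with honokiol, though that difference was not called. The log2 difference of honokiol plus indomethacin against control was -0.66 (adjusted p = 0.83, edgeR). The gene had 24 and 19.3 CPM in control, 59.3 and 70.7 with indomethacin, and 15.4 and 12 with honokiol, which put both honokiol libraries below both controls. It was the lowest of the 44 by the increment left, at -18.4%, with a log2 difference from indomethacin alone of -2.25 ± 0.30 (SE, adjusted p = 0.017, edgeR). A further 5 genes were called lower with honokiol without having been called with indomethacin against control, and are named here after their values were seen. They lie on chromosome 8 at 73672295 to 73673317, chromosome 4 at 140703619 to 140709319, chromosome 6 at 105364668 to 105399500, chromosome 1 at 261106760 to 261140389 and chromosome 3 at 11442397 to 11452529. The chromosome 6 gene shows the pattern, at 14.5 and 10.8 CPM in control, 23.5 and 21.6 with indomethacin and 8.35 and 7.97 with honokiol, with an adjusted p of 0.085 for indomethacin against control and 0.017 for honokiol against indomethacin (edgeR). In all 5 genes both honokiol libraries were at or below the higher control, as in 56.0% of all genes tested.

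Neighbouring genes were listed to show where in the genome the response lay, a grouping chosen after the values were seen. Among the 123 raised genes, 14 formed 7 pairs whose spans lay within 100 kb of each other. A pair on chromosome 1, of 9 exons from 80730499 and 8 exons from 80820050, was called lower at both genes, with log2 differences of -2.41 and -1.95 (adjusted p = 0.015 and 0.018, edgeR). A pair of small genes on chromosome 19, from 11302125 and from 11307967, was called at neither, with differences of -1.03 and -1.35 (adjusted p = 0.18 and 0.31, edgeR). In the other 5 pairs 1 gene was called and its neighbour was not, at adjusted p from 0.058 to 0.12. Members of a gene family can share reads, and no source used here says how the counter treated such reads.

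The chromosome 14 locus around ENSRNOG00000002843 held several features with the same order of levels. Within 200 kb, 7 features were tested. A 4-exon gene from 18743685 to 18745457 was at 0.0632 and 0.167 CPM in control, 11.6 and 26.5 with indomethacin, and 0.259 and 0.449 with honokiol, and its log2 difference of -5.76 ± 1.33 (SE) missed the threshold (adjusted p = 0.24, edgeR). A 4-exon gene from 18731378 to 18733391 was at 1.73 and 2.31 CPM with indomethacin and 0.0324 and 0.0748 with honokiol (adjusted p = 0.33, edgeR). Replicates of these neighbours differed widely in other groups, and the first was at 5.45 and 38.8 CPM with aspirin. The order was the opposite at the distal end of the window, where an 11-exon gene from 18983853 to 19025971 was at 10.6 and 8.12 CPM with indomethacin and 14.9 and 11.4 with honokiol, both honokiol libraries above both indomethacin libraries, with a difference of 0.49 ± 0.26 that was not called (SE, adjusted p = 0.59, edgeR).

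A set of 13 short features of at most 2 exons and under 600 nt stood among the 123, again grouped after their values were seen. Of these 5 were called lower with honokiol, against 0.300% of all genes tested. The median log2 difference was -2.65, against -1.70 in the other 110 raised genes, of which 39 were called. Indomethacin had raised the 13 by a median of 3.46, while diclofenac and aspirin moved them by medians of 1.54 and 1.15, and 8 of the 13 were called with neither. In the other 110 genes these medians were 2.51, 2.75 and 2.57, and 4 genes were called with neither. All 123 were chosen by their level in the same 2 indomethacin libraries. That choice favours larger falls with honokiol where the indomethacin value was larger, and smaller changes with the other drugs. These contrasts are given only as a description. Of the 13 features, 5 lie on chromosome 6 between 140101861 and 143065639, 3 lie on chromosome 4 and 2 on chromosome 3. The chromosome 6 feature from 143065206 to 143065639 was at 0.221 and 0.334 CPM in control, 6.44 and 2.44 with indomethacin, and 0.421 and 0.150 with honokiol (log2 difference -3.91 ± 0.56 SE, adjusted p = 0.018, edgeR). It is not among the 8 called with neither other drug. With aspirin it was at 2.32 and 2.13 CPM (log2 change from control 2.99, adjusted p = 0.0097, edgeR), and with diclofenac at 0.749 and 0.928 CPM, which was not called.

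The 79 indomethacin-raised genes that were not called ranged from near to far from the threshold. Their log2 differences ran from -4.02 to -0.35 and their adjusted p from 0.058 to 0.89 (edgeR), with 20 under 0.10. The 95% interval of the difference, not adjusted for the number of genes, lay wholly below 0 in 70 of them and held 0 in 9. Of all 16346 genes tested, 1552 had p under 0.05 before adjustment, in either direction (edgeR). The 79 were chosen for high values in the same 2 indomethacin libraries, which by itself favours intervals below 0. Missing the threshold does not by itself place these genes among the unchanged ones. A 48-exon gene on chromosome 6 from 138054662 to 138662511, the most abundant of the 79, was at 45.5 and 70.9 CPM in control, 300.0 and 283 with indomethacin, and 88.8 and 53.7 with honokiol, with an adjusted p of 0.097 (edgeR). A single-exon gene on chromosome 19 from 26092974 to 26094756 was at 12.1 and 10.4 CPM in control, 63.0 and 120 with indomethacin, and 15.5 and 12.8 with honokiol (adjusted p = 0.067, edgeR).

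The 12 raised genes that differed least with honokiol, with an average log2 CPM no lower than 1, kept 38.9% to 61.8% of the indomethacin increment. Their log2 differences from indomethacin ran from -0.39 to -0.80. A 5-exon gene on chromosome 3 from 142778770 to 142783774 was at 3.13 and 2.50 CPM in control, 5.97 and 8.84 with indomethacin, and 5.50 and 5.80 with honokiol. Its honokiol libraries were just under the lower indomethacin library and above both controls, and the difference of -0.39 had a 95% interval of -0.92 to 0.14 (adjusted p = 0.68, edgeR), which does not exclude a fall by almost 1 on the log2 scale. A 4-exon gene on chromosome 6 from 139140679 to 139142218 kept 57.6% of a larger increment, at 0.821 and 0.668 CPM in control, 7.06 and 5.99 with indomethacin and 5.12 and 3.03 with honokiol (interval of the difference -1.73 to 0.38). A 5-exon gene on chromosome 12 from 6711747 to 6740714 kept 49.8%, at 0.821 and 0.668 CPM in control, 4.96 and 5.16 with indomethacin and 3.21 and 2.58 with honokiol. That gene's interval, -1.48 to -0.12, lay below 0, although its adjusted p was 0.45 (edgeR).

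**Figure D3:**
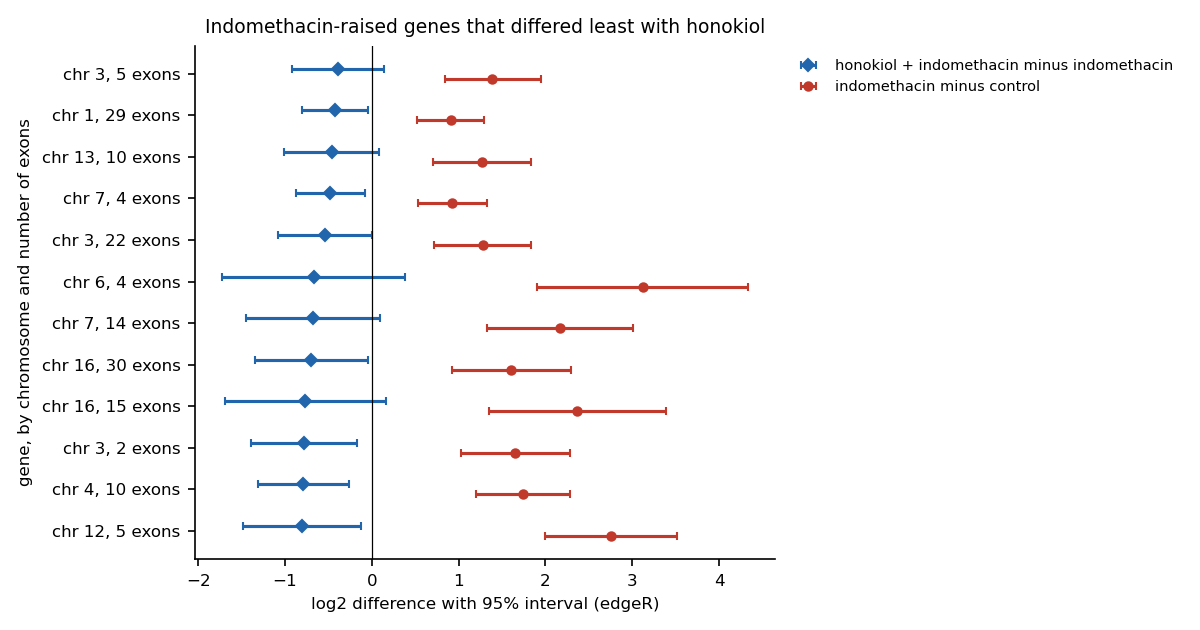
Log2 differences with 95% intervals (edgeR) for the 12 indomethacin-raised genes that differed least with honokiol: blue diamonds show honokiol plus indomethacin minus indomethacin and red circles indomethacin minus control. The blue values run from -0.39 to -0.80, and several of their intervals cross 0.

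A group of 3 genes on the proximal part of chromosome 7 was high with indomethacin, intermediate with honokiol and close to 0 elsewhere, and is described here after its values were seen. A 24-exon gene from 14529482 to 14574361 was at 0.379 and 0.234 CPM in control, 6.11 and 4.29 with indomethacin, 2.56 and 1.46 with honokiol, and at most 0.331 in the diclofenac and aspirin libraries. A 6-exon gene from 14821691 to 14828517 had 0 counts in control, 1.45 and 1 CPM with indomethacin, and 0.777 and 0.374 with honokiol. A 6-exon gene from 13881583 to 13887854 likewise had 0 counts in control, then 0.948 and 0.873 CPM with indomethacin and 0.389 and 0.225 with honokiol. The increment left was 34.8%, 47.0% and 33.7%, and none of the 3 was called for honokiol against indomethacin (adjusted p = 0.40, 0.64 and 0.45, edgeR).

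The 4 genes that indomethacin lowered did not share 1 pattern. ENSRNOG00000014398, a 9-exon gene on chromosome 15 from 49069145 to 49177166, was at 4.99 and 3.91 CPM in control, 0.948 and 1.26 with indomethacin, and 5.67 and 5.31 with honokiol. Both honokiol libraries lay above both controls, and the rise of 2.31 ± 0.39 over indomethacin passed the test (SE, log2, adjusted p = 0.036, edgeR). In contrast, a 7-exon gene on chromosome 17 from 14607442 to 14627937 was at 20.4 and 24.9 CPM in control, 10.5 and 9.92 with indomethacin, and 12 and 10.6 with honokiol, so that 90.8% of its decrease was left (difference 0.15 ± 0.23 SE, adjusted p = 0.90, edgeR). A 9-exon gene further along, from 15447716 to 15467359, had 89.8% left, and a 2-exon gene on chromosome 20 from 10727513 to 10729072 had 92.8% left at levels of 0.112 CPM or less in all 4 libraries. Those 3 genes were not called with honokiol.

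The other 6 genes raised by honokiol over indomethacin were not called with indomethacin against control. ENSRNOG00000006645, a gene of 117 listed exons on chromosome 3 from 104118063 to 104504204, was at 0.505 and 1.24 CPM in control, 0.418 and 0.565 with indomethacin, and 2.66 and 2.92 with honokiol, a rise of 2.49 ± 0.45 (SE, log2, adjusted p = 0.045, edgeR). A 10-exon gene on chromosome 9 from 10963723 to 10971277 was at 12.5 and 12.7 CPM with honokiol against 2.51 and 3.37 with indomethacin and at most 4.54 in any of the 8 other libraries, a rise of 2.1 ± 0.24 (SE, adjusted p = 0.0078, edgeR). On chromosome 4, from 64088900 to 64091090, a feature with 1 listed exon and a length of 2191 nt, which lies under the abundance limit and is described after its values were seen, was at 1.91 and 2.02 CPM with honokiol and at most 0.0771 CPM elsewhere. It held 113 counts with honokiol against 4 with indomethacin, a ratio of 36.7 (exact 95% counting interval 13.9 to 137). With at most 3 counts in any library of the other groups, this feature passed the low-count filter only through the honokiol libraries. That entry favours a rise with honokiol, so its values are only a description. Smaller rises were called on chromosome 11 from 60645086 to 60679555 (log2 difference 1.41), chromosome 1 from 128692112 to 128722048 (1.25) and chromosome 4 from 89183768 to 89281222 (1.06).

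**Figure D4:**
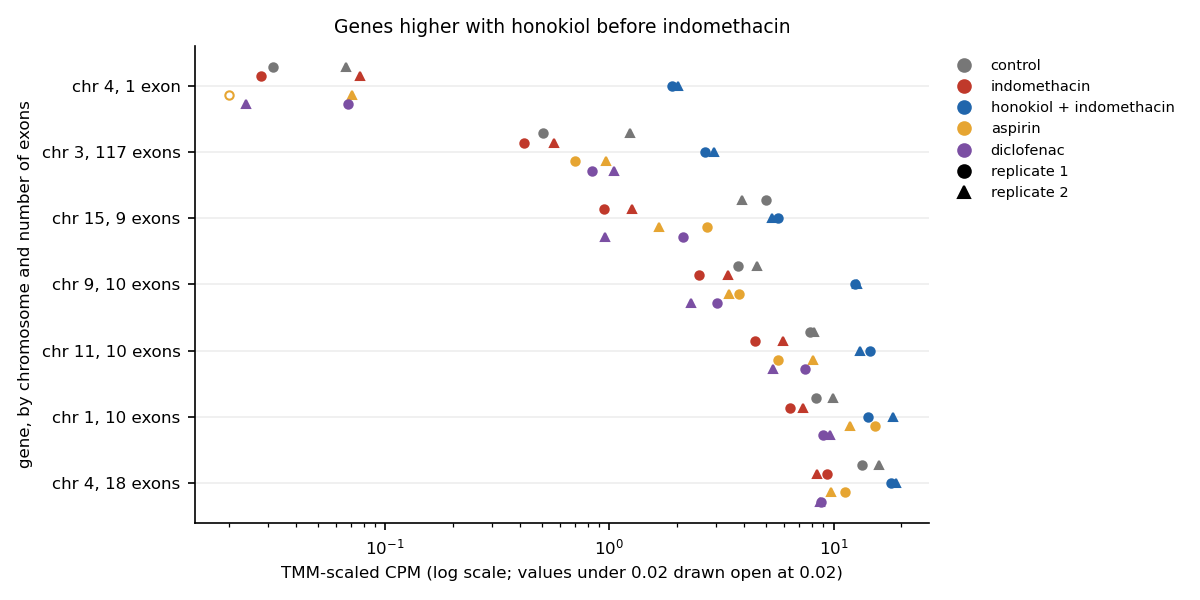
TMM-scaled CPM on a log axis of the 7 genes called higher with honokiol plus indomethacin (blue) than with indomethacin alone (red), beside control (grey), aspirin (yellow) and diclofenac (purple), circles for replicate 1 and triangles for replicate 2. Both blue points lie right of both red points in each gene, and in the chromosome 9 gene of 10 exons they lie at 12.5 and 12.7 against at most 4.54 in the 8 other libraries.

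Counted over all genes, 7 had both honokiol libraries at 1 CPM or more and at least 2-fold above each of the 8 other libraries. At least 2-fold below lay 0 genes, but there each of the 8 other libraries had to reach 1 CPM. The conditions are unlike, so 7 and 0 do not compare rises with falls. The same count above the rest was 1 for control, 11 for indomethacin, 3 for aspirin and 0 for diclofenac. Of these 7 genes 3 are among those called, and the other 4, on chromosomes 1, 14, 20 and 2, had adjusted p from 0.067 to 0.19 against indomethacin (edgeR). The chromosome 14 gene of 20 exons, from 87312203 to 87421659, was at 1 and 1.46 CPM with honokiol and 0.195 and 0.128 CPM with indomethacin.

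A further description used genes called with both diclofenac and aspirin against control, contrasts that hold no library of the comparison, although all 10 libraries shared the filter, the scaling and the estimate of the spread. Y reads and mitochondrial share also differed in these contrasts. The latter was 35.1% and 36.2% in control, 23.8% and 22.8% with aspirin, and 21.4% and 21.1% with diclofenac. Indomethacin replicate 2, at 21.7% and without Y reads, stood nearer the other drugs than both honokiol libraries did. Beyond the term for Y reads, the part of these features in the difference was not tested. Both drugs raised 681 genes (4.17%) and lowered 400 (2.45%). Of the 681 raised genes, 40 were called lower with honokiol, against 0.300% of all genes tested, and 0 higher, and the median log2 difference of honokiol plus indomethacin minus indomethacin was -0.68, against -0.02 in all genes tested. Both honokiol libraries lay below both indomethacin libraries in 463 of the 681, or 68.0%, against 23.6% of all genes tested, and above them in 1.91% against 21.7%. With a term for Y reads the number called was 19 among the genes that this model found raised by both drugs, and it was 6 without indomethacin replicate 2, 0 without honokiol replicate 1, 2 without honokiol replicate 2, and 80 or 66 without either diclofenac replicate. The median of the same 681 genes was -0.57 with that term, and lay between -0.80 and -0.48 under the other fits of the comparison. A list called from the 6 control, diclofenac and aspirin libraries alone, chosen after seeing the data, held 419 raised genes, 403 of them among the 681. Its median difference was -0.80 in the fit of all libraries, with 37 called lower, and -0.77 in a fit of only the 4 libraries compared, with 81 called lower of 398 measured and a median of 0 over all genes.

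The median difference was larger in size where the response to the other drugs was larger. The 681 genes were divided by the mean of their log2 changes with diclofenac and aspirin into groups of 227. In the group with changes from 0.63 to 1.38 the median difference with honokiol was -0.31 and 2 genes were called. With 0.300% of all genes tested called lower, that count is near the background. With changes from 1.38 to 2.24 it was -0.73 and 10 were called, and with changes from 2.24 to 10.74 it was -1.68 and 28 were called. The same 681 genes stood at a median of 1.06 for indomethacin against control and 0.39 for honokiol plus indomethacin against control, so that in the median gene part of the increase was present with honokiol as well.

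**Figure D5:**
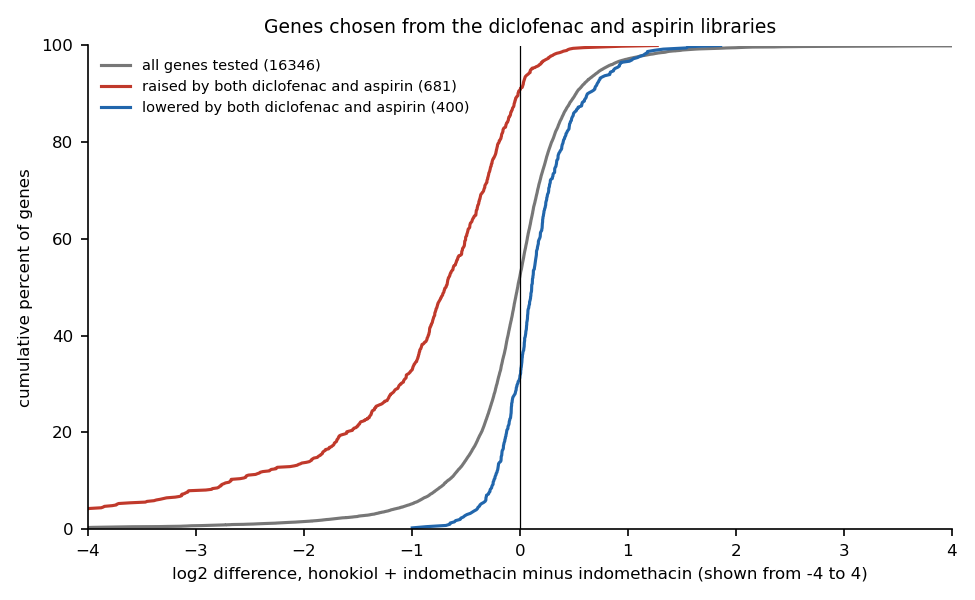
Cumulative percent of genes by the log2 difference of honokiol plus indomethacin minus indomethacin, for all 16346 genes tested (grey), the 681 raised by both diclofenac and aspirin (red) and the 400 lowered by both (blue). The red curve lies to the left, with a median of -0.68 against -0.02, and the blue curve slightly to the right, with a median of 0.11.

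The genes lowered by both other drugs had a median difference of 0.11 with honokiol. Of the 400, 0 were called with honokiol against indomethacin (edgeR; DESeq2 called 8 of those it found lowered by both drugs), and with 0.343% of all genes called this count is near the background and shows nothing particular to them. Their median was -0.40 for indomethacin against control and -0.28 for honokiol plus indomethacin against control. Both honokiol libraries lay above both indomethacin libraries in 35.8% of them, against 21.7% of all genes tested.

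Mitochondrial features were also read, since the sirtuin named in the study title is a mitochondrial protein. Of 23 mitochondrial features tested, 0 were called (edgeR), which at 0.343% called over all genes is no result about them, and the 15 longer than 200 nt had a median difference of 0.33. In all 15 the level was higher in indomethacin replicate 1 than in replicate 2 and higher in honokiol replicate 2 than in replicate 1. Short single-exon nuclear features of at most 350 nt leaned the other way, with a median of -0.36 over 658 features, 74.3% of them below 0 against 52.2% of all genes. Of the 658, 2 were called lower, and with 0.300% of all genes called lower this count is near the background.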

How the data were processed

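The authors deposited raw counts per gene for 32623 Ensembl identifiers in 10 libraries, in the column layout of featureCounts per the file headers. Stranded total RNA libraries were sequenced as paired ends per the labels' protocols. The submitters' processing notes name HISAT2 2.1.0 and featureCounts, beside DESeq2, SAMtools, cutadapt 1.16, FastQC 0.11.7 and bcl2fastq. No source used here gives the strand setting of the counter or its handling of multi-mapping reads, so genes that overlap or lie antisense may share reads.

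From these counts, edgeR 4.0.16 (R 4.3.3) was run with TMM factors, filterByExpr defaults (minimum count 10, minimum total 15) and the robust quasi-likelihood F test on all 10 libraries, with group as the only term and 5 residual degrees of freedom. The threshold for a call was 0.05 on the Benjamini-Hochberg adjusted p. Standard errors are the log2 difference divided by the square root of F, and 95% intervals use the moderated degrees of freedom. Counting intervals cover counting error only. Medians were taken again with genes at 0 counts in a group at their bound, over a floor of 3 counts; that of the 681 genes for indomethacin against control became 1.05, and the other medians so recomputed were the same. The scripts were tested on simulated data.

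Alternatives included RLE factors, other filters, DESeq2 1.42.0, limma-voom (limma 3.58.1), fewer libraries, a replicate block and a term for Y reads. The fit on libraries with Y reads, keeping the 123 genes fixed, and the list from the control, diclofenac and aspirin libraries alone were chosen after seeing the data. Members, lists and tests were chosen with earlier results of these data known. Described by rule were up to 20 lower and up to 20 higher called genes with the largest differences and an average log2 CPM no lower than 0, which gave 20 and 6, and the 12 least changed genes raised by indomethacin with an average no lower than 1. The rule also asked for a gene symbol, which no identifier had; the gene lists and promoter motifs planned could not be applied for the same reason, and no sequence is shown. Whether replicate libraries are separate animals is not stated in the labels. Y-chromosome counts of 3582 and 1 in control and 4438 and 2 with indomethacin are not what libraries of 1 animal would give. For the other groups the counts do not tell. All groups shared the estimate of the spread, so the p-values of every comparison may in part measure technical spread.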

Additional observations from a re-analysis of the deposited data

How the results depend on the processing

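Counts of calls depended on the setting. Honokiol plus indomethacin against indomethacin, 56 called, gave 699 with no low-count filter (569 lower, 130 higher), 250 with DESeq2, 9 with limma-voom, 250 with only the 4 libraries compared, 137 with only the 6 control, indomethacin and honokiol libraries, 35 with a term for Y reads, 191 with only libraries with Y reads, 110 at an adjusted p under 0.10, and 0 to 118 with 1 library left out. Indomethacin against control, 127 called, gave 834 with no filter, 384 with DESeq2, 56 with limma-voom, 250 with those 6 libraries, and 1 to 200 with 1 library left out. Honokiol plus indomethacin against control, 0 called, gave 153, 15 and 5 with no filter, DESeq2 and only Y-read libraries, and 0 to 1 with 1 left out. Genes raised by indomethacin and called lower with honokiol, 44, numbered 429 with no filter, 172 with DESeq2, 6 with limma-voom, 106 with those 6 libraries, 27 with the Y term, 96 with only Y-read libraries, and 0 to 91 with 1 left out. The median of the genes each setting called was -1.21 with no filter, -2.35 with only Y-read libraries, and -4.37 to -1.64 with 1 left out. Genes raised by both diclofenac and aspirin and called, 40, numbered 360, 149, 7 and 19 with no filter, DESeq2, limma-voom and the Y term, 81 for the list called without the libraries compared with differences from those 4 alone, and 0 to 80 with 1 left out. Among those lowered by both, 0 called became 34 with no filter, 8 with DESeq2, 1 with the replicate block, 1 with the Y term, 3 for the separate list with the 4 libraries alone, and 0 to 3 with 1 left out.

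The 44 genes kept their direction wherever measured, with medians from -3.00 to -2.39. Over the described genes and settings, 1158 values kept direction and call, 326 kept direction but lost the call, 2 gained one and 0 reversed. Both sets were chosen by their values in these same libraries. Kept directions were largely fixed by that choice and do not show stability. The replicate block called 71 genes, 50 of them among the 56. The deviations of same-numbered libraries from their group means correlated at 0.132 between control and indomethacin, 0.298 between control and honokiol and 0.137 between indomethacin and honokiol, and at -0.263 to 0.222 in pairs with aspirin or diclofenac. With 2 numbers and no label that ties them to an animal or day, they were not taken to pair samples, and the cause of the change in calls was not tested. Fits on fewer genes or libraries change the number of tests and the estimate of the spread. The 2 libraries per group and the low counts of the steepest genes limit precision.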
